A study of Rattus norvegicus with 54 samples.

Results

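The 9 genes described here belong to the endoplasmic reticulum stress response and were followed across 3 tissues of obese and lean Zucker rats. They were chosen by name, with earlier results of these data known, as Xbp1, Atf4, Ddit3, Herpud1, Dnajb9, Hspa5, Hsp90b1, Calr and Pdia4. All probe sets that the platform annotation gives to these symbols were taken. Each of the 9 genes had 1 probe set, so the group held 9 probe sets of the 15866 on the array that are not controls, and 9 of 10411 named genes.

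Male Zucker rats were compared in 6 groups. In 4 groups obese rats, labelled fatty (fa/fa) and lacking a working leptin receptor, received a ligand of PPARγ, the nuclear receptor that drives fat cell differentiation. The ligands were pioglitazone, rosiglitazone, troglitazone and AG035029. The untreated obese group was also fa/fa and was fed normal chow. The lean group was fa/+ and fed normal chow, so the lean rats also carried 1 copy of the fa allele. The labels give no age, dose or length of treatment, and no lean group received a ligand. Epididymal adipose tissue, liver and gastrocnemius muscle were each hybridised to 3 Affymetrix arrays per group, 54 arrays in all, and each array held RNA pooled from 2 rats. The labels do not say whether the 3 pools of a group held different rats, nor whether the same rats gave all 3 tissues. The p-values therefore measure the spread between pools, which hides differences between single rats.

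When unfolded proteins collect in the endoplasmic reticulum, the sensors IRE1, PERK and ATF6 start a programme called the unfolded protein response. IRE1 splices Xbp1 mRNA, PERK slows translation while favouring that of ATF4, and ATF6 is cut to release a transcription factor. Their targets include chaperones that fold secreted proteins, enzymes that form disulfide bonds, parts of the disposal route for misfolded proteins, and the transcription factor CHOP, which Ddit3 encodes. In liver and fat cells, which secrete many proteins and handle much lipid, the response has been studied widely in obesity. The arrays report transcript abundance, and neither splicing of Xbp1 nor any protein was measured.

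The proximal promoters of the 9 genes are shown first because several carry the same element. RefSeq promoters of the GRCr8 rat assembly, 250 bases before to 50 bases after each gene's start, were available for all 9 genes and were searched on both strands for 4 motifs. The ER stress response element (ERSE) was searched as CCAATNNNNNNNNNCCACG, where N is any base. It was found in 4 of the 9 promoters, those of Xbp1, Hspa5, Hsp90b1 and Calr, and in 22 of 33469 rat promoters of the same length, or 0.0657%. The second form, ERSE-II (ATTGGNCCACG), lay in the promoter of Herpud1 and in 0.0508% of all promoters. The amino acid response element of ATF4 targets (CARE, TGATGCAA) lay in the promoter of Herpud1 and in 0.795% of all. The XBP1 element (UPRE, TGACGTGG) matched 0 of the 9 promoters and 0.595% of all. No match overlapped another. The matches are given below in capitals with up to 30 bases on each side, 5′ to 3′ on the strand of the gene.
Xbp1 ERSE, chr14:84604528-84604606, plus strand, match at -65 to -47 from the start: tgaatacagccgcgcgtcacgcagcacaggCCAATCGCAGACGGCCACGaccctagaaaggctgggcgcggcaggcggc
Hspa5 ERSE, chr3:38452943-38453021, plus strand, match at -43 to -25: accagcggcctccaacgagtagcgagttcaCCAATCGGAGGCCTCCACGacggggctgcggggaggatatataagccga
Hsp90b1 ERSE, chr7:23012421-23012499, minus strand, match at -176 to -158: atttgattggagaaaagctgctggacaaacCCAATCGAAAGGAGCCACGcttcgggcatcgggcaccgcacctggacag
Hsp90b1 ERSE read in reverse, chr7:23012317-23012395, minus strand, match at -72 to -54: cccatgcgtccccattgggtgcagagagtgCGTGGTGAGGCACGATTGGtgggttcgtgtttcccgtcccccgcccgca
Calr ERSE read in reverse, chr19:40213117-40213183, plus strand, match at -232 to -214: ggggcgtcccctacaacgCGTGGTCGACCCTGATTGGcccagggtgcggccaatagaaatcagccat
Herpud1 ERSE-II, chr19:10614791-10614861, minus strand, match at -124 to -114: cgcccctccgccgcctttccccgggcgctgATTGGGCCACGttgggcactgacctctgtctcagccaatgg
Herpud1 CARE read in reverse, chr19:10614854-10614921, minus strand, match at -184 to -177: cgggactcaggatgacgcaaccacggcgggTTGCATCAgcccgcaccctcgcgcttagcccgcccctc
A match describes the letters in this window only, and binding was not measured. The genes were chosen by name for this response and the motifs belong to it, so the matches are a description and not a test. The promoters of these genes were not left out of the counts over all promoters. The promoters of Atf4, Ddit3, Dnajb9 and Pdia4 held none of the 4 motifs in the window.

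The values are Affymetrix signals on a linear scale, with array medians of 205.3 to 247.6 (adipose tissue), 200.8 to 248.4 (liver) and 190.8 to 232.5 (muscle). Tissue identity followed the labels: Lipe, the hormone-sensitive lipase, read 5655.7 to 9984.7 in adipose tissue, and Apoa1, a liver apolipoprotein, read 10859.4 to 25368.0 in liver against 3.9 to 34.2 in adipose tissue. Ckm, the muscle creatine kinase, read 43420.5 to 114450.0 in muscle. One liver array, troglitazone replicate 3, stood apart, with an Acta1 (skeletal muscle actin) signal of 13627.1 against at most 316.2 on the other 17 liver arrays. Liver results averaged over ligands, those of troglitazone and those of the tests among ligands were also computed without it. The arrays with the lowest correlation to their own group were adipose rosiglitazone replicate 2 (0.952), liver rosiglitazone replicate 3 (0.913) and muscle troglitazone replicate 2 (0.921).

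In lean rats the folding factors Pdia4, Hspa5 and Hsp90b1 were highest in liver and lowest in muscle, and Atf4 was highest in muscle. Changes are log2 differences of signal plus 20 with their standard errors, and a probe set is called where limma's p-value, adjusted over all probe sets tested by the Benjamini-Hochberg method, is under 0.05. Liver against muscle gave 8 of 8 called among the genes above the signal filter in both tissues, 6 higher and 2 lower, against 54.7% of all probe sets. Liver against adipose tissue gave 6 of 9 called, against 54.4%, and muscle against adipose tissue gave 6 of 8, against 56.5%. Each count stands on a background in which more than every second probe set differed. The percentages cover the 11520 probe sets above the filter in at least 1 tissue, as all 9 genes were. Counted on that set, liver against muscle called 9 of 9 genes, liver against adipose tissue 6 of 9 and muscle against adipose tissue 7 of 9. The medians of all probe sets in these comparisons were -0.06, -0.15 and -0.13, and quantile normalization moved the one for liver against adipose tissue by 0.11.

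Pdia4, a protein disulfide isomerase of the endoplasmic reticulum, lay below the filter in muscle. It was therefore left out of the counts against muscle that required both tissues to pass. Its signals in lean rats were 5046, 4847 and 4909.8 for liver, 1098, 996 and 1025 for adipose tissue, and 178, 58.6 and 181 for muscle. The 3 tissues did not overlap, and liver exceeded adipose tissue by 2.23 ± 0.40. Its 18 muscle signals spanned 28.2 to 198.5, and it was not tested within that tissue. The difference of liver over muscle varied from 4.58 to 5.26 over the alternatives and is given as a description, since it depends on the value added before the logarithm. Hspa5 and Hsp90b1 ran in the same order of tissues. Hspa5, the chaperone BiP that also holds the stress sensors inactive, had lean liver over lean muscle of 1.94 ± 0.18, and Hsp90b1, the chaperone GRP94, had 1.93 ± 0.17. Calr, calreticulin, which binds glycoproteins and calcium, was 1.54 ± 0.17 higher in liver than in muscle, and its difference between liver and adipose tissue, -0.26 ± 0.17, was not called (adjusted p = 0.196, limma) but was under quantile normalization, at -0.61 (0.00182).

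Xbp1, the transcription factor made active by IRE1, was 1.97 ± 0.17 higher in lean liver than in lean muscle and lower in muscle than in adipose tissue, at -1.82 ± 0.17. Its liver against adipose difference, 0.14 ± 0.17, was not called (adjusted p = 0.508), and under quantile normalization it turned to -0.48 (adjusted p = 0.02). Without the highest lean adipose array, replicate 1, it was 0.41 (adjusted p = 0.0486). Herpud1, a membrane protein that helps pass misfolded proteins to degradation, ran in the order liver, muscle, adipose tissue, with liver over adipose of 1.74 ± 0.23 and muscle over adipose of 0.82 ± 0.23. Dnajb9, a co-chaperone of BiP, was 1.25 ± 0.19 higher in liver than in adipose tissue, while muscle and adipose tissue differed by 0.30 ± 0.19 (adjusted p = 0.16), a difference called under quantile normalization at 0.51 (0.0139).

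Atf4 and Ddit3, of the PERK branch, differed in order of tissues from Pdia4, Hspa5 and Hsp90b1. Atf4 was highest in muscle, with lean signals of 5253, 6136 and 6889 in muscle, against 2619, 2465 and 2248 in liver and 2559.7, 2664 and 2288 in adipose tissue. Every muscle array exceeded every array of the other tissues, by 1.27 ± 0.13 over adipose tissue. Liver and adipose levels overlapped, at a difference of -0.03 ± 0.13 (adjusted p = 0.845). Ddit3 was lower in lean liver than in lean adipose tissue, by -0.72 ± 0.24 (adjusted p = 0.0117), which was lost under quantile normalization (adjusted p = 0.063) and without lean adipose replicate 2 (adjusted p = 0.0599). Its liver against muscle difference of -0.63 ± 0.24 (adjusted p = 0.0257) was lost without any 1 of liver lean replicates 2 and 3 or muscle lean replicates 1 and 2, with adjusted p of 0.059, 0.053, 0.215 and 0.0774.

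**Figure D1:**
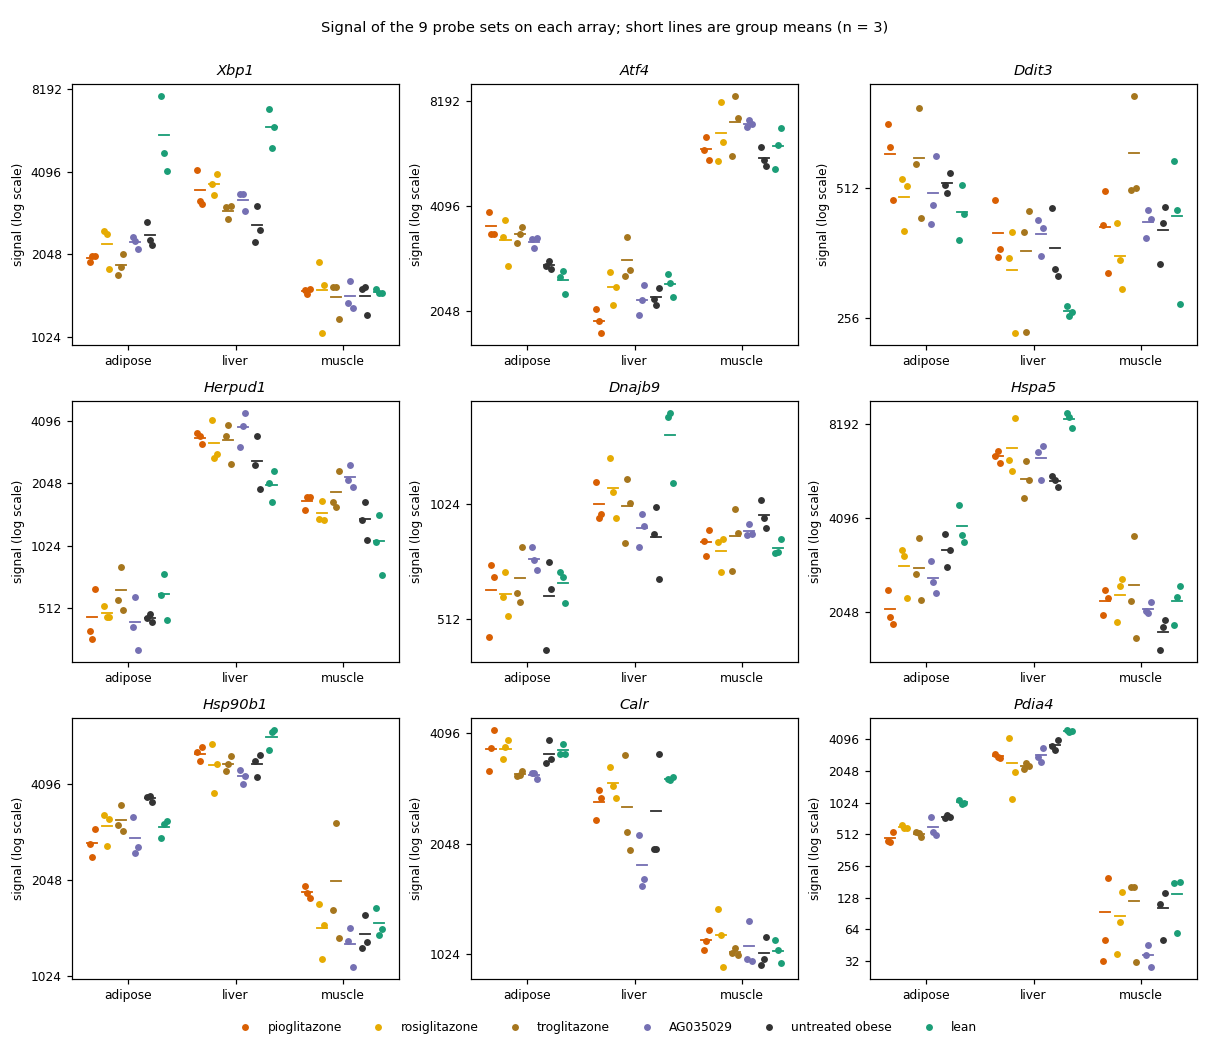
Signal of each of the 9 probe sets (y axis, log scale) on all 54 arrays, by tissue along the x axis and by group in colour, ligands first, then untreated obese, then lean; points are arrays and short lines are means of 3. In adipose tissue and liver the 3 lean arrays of Xbp1 lie above every obese array, 4118 to 7752 in adipose tissue, and in muscle the groups lie together.

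Untreated obese rats had less Xbp1 than lean rats in adipose tissue and liver, and no difference was called in muscle. In adipose tissue Xbp1 read 2686, 2309 and 2212 in untreated obese rats, against 7752, 4811 and 4118 in lean rats. The groups did not overlap, and 1 lean array, replicate 1, was far above the other lean arrays. How many of all probe sets separate in this way was not counted, so a lack of overlap, here and elsewhere, is a description only. The log2 change was -1.16 ± 0.18, or 0.449 times the lean level (adjusted p = 0.000556). In liver Xbp1 read 2273, 3084 and 2517 in untreated obese rats, against 6922, 5005 and 5959 in lean rats. Again every obese array lay below every lean array, and the change was -1.18 ± 0.16, or 0.442 times the lean level (adjusted p = 0.000428). In muscle the signals were 1535, 1563 and 1227 in untreated obese rats and 1528, 1481 and 1485 in lean rats, which overlapped, with a change of -0.06 ± 0.18 (adjusted p = 0.997). Both falls were called without any 1 array and in every alternative tried.

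The obesity effect on Xbp1 differed between tissues when the 54 arrays were fitted together (F-test, limma, adjusted p = 0.0104). That fit took all arrays as independent, which the labels do not settle, since the same rats may have given several tissues. The adipose effect minus the muscle effect was -1.09 ± 0.25 (adjusted p = 0.0416) and the liver effect minus the muscle effect was -1.11 ± 0.25 (adjusted p = 0.0279), while adipose minus liver was 0.02, with a 95% interval of -0.47 to 0.52. The same F-test called 2 of the 9 genes, Xbp1 and Dnajb9, against 0.868% of 11520 probe sets.

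In bulk tissue fewer cells of a type and less RNA per cell cannot be told apart, and markers of several cell types moved with Xbp1 in adipose tissue. Of 6 adipocyte markers 1 was called higher and 3 lower, with a median of -0.41, against 3.16% of all probe sets higher and 2.86% lower, and their summed signal overlapped, at 32802.3 to 40298.7 in untreated obese and 36559.5 to 45054.8 in lean rats. The summed signal of 6 endothelial markers was 5074.1 to 5343.4 in untreated obese and 6642.4 to 7800.0 in lean adipose tissue, with 0 of 6 called and 4 of 6 at an unadjusted p under 0.05. The sum of 10 macrophage markers was 33822.4 to 36222.8 in untreated obese and 16061.7 to 19612.6 in lean rats, with 6 of 10 higher. The sum of 10 immediate early genes, which respond to tissue handling, was 11410.9 to 12008.4 in untreated obese and 14417.5 to 28392.9 in lean rats, with 0 of 9 tested called. Sums of markers of other organs were low and also did not overlap. That of 8 hepatocyte markers was 575.9 to 804.0 in untreated obese and 1255.5 to 2517.8 in lean rats, and that of 8 pancreatic acinar markers was 848.9 to 914.4 in untreated obese and 339.9 to 427.5 in lean rats. Only 2 of the hepatocyte markers passed the signal filter, 1 of them called lower, and 1 acinar marker passed, which was called higher. The sums of 8 fibroblast and 10 skeletal muscle markers overlapped. Of 12 genes that mark B and plasma cells, which use Xbp1 heavily, only Cd79b was found, at 5.7 to 33.4 in untreated obese and 12.4 to 60.6 in lean adipose tissue. In liver the sums of all 9 marker lists overlapped, that of the macrophage list being 6990.9 to 7806.8 in untreated obese and 7472.9 to 10373.8 in lean rats. The part of these markers in the result was not tested.

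In adipose tissue Pdia4 was the other gene called between untreated obese and lean rats, making 2 of 9 called, both lower, against 6.02% of all probe sets. Pdia4 read 739.6, 775 and 748 in untreated obese rats, against 1098, 996 and 1025 in lean rats. The groups did not overlap, and the change was -0.45 ± 0.13 (adjusted p = 0.0467). The call lies at the threshold: it was lost without any 1 of the 6 arrays (adjusted p of 0.0822 to 0.139), with no signal filter (0.056) and with median centring (0.0823). Hsp90b1 leaned the other way, at 3734, 3763 and 3583 in untreated obese rats and 2781, 3076 and 3137 in lean rats, without overlap, at 0.30 ± 0.12 (adjusted p = 0.159). Atf4 also read higher without overlap and was not called. Its signals were 2749.7, 2853 and 2697 in untreated obese rats and 2559.7, 2664 and 2288 in lean rats. The median change of the 9 genes was -0.13, against -0.02 for all probe sets, and 3 of 9 had an unadjusted p under 0.05.

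In liver Xbp1 was the single gene called of 9, against 0.672% of all probe sets, and Dnajb9 and Hspa5 lay just past the threshold. Dnajb9 read 855, 1004 and 649.7 in untreated obese livers, against 1728, 1772 and 1162 in lean livers, without overlap, at -0.87 ± 0.21 (adjusted p = 0.059). It was called without untreated obese replicate 2 (0.0469) and without lean replicate 3 (0.0233). Hspa5 read 5600.0, 5402 and 5144 in untreated obese livers, against 8904, 8650.2 and 7971 in lean livers. These groups also did not overlap, and the change was -0.66 ± 0.16 (adjusted p = 0.0605). Dnajb9 was also called with the replicate number as a block (0.0455). With only probe sets above the 60th percentile tested, both were called, with adjusted p of 0.0427 for Dnajb9 and 0.0475 for Hspa5, and leaving out the array of lowest correlation gave 0.0289 for Hspa5. Pdia4 and Hsp90b1 read lower in every obese liver than in any lean liver, at -0.46 ± 0.28 and -0.28 ± 0.14, and neither was called (adjusted p = 0.655 and 0.542). Ddit3 read 458, 332 and 319.8 in untreated obese livers, against 273, 258 and 263 in lean livers, without overlap, at 0.44 ± 0.25 (adjusted p = 0.608). The median change of the 9 genes in liver was -0.34, against -0.01 for all probe sets.

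In muscle 0 of 8 tested genes were called between untreated obese and lean rats (limma), against 0.021% of all probe sets, and 0 had an unadjusted p under 0.05. Dnajb9 read 1046, 941 and 887 in untreated obese muscle and 761, 767 and 826 in lean muscle, without overlap, at 0.28 ± 0.15 (adjusted p = 0.997). The liver effect on Dnajb9 minus the muscle effect was -1.15 ± 0.26 (adjusted p = 0.0306), and its F-test over tissues had an adjusted p of 0.0383. That F-test was lost with array weights (0.123), with median centring (0.0938) and without any 1 of 14 of the 18 arrays compared (0.0519 to 0.154).

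**Figure D2:**
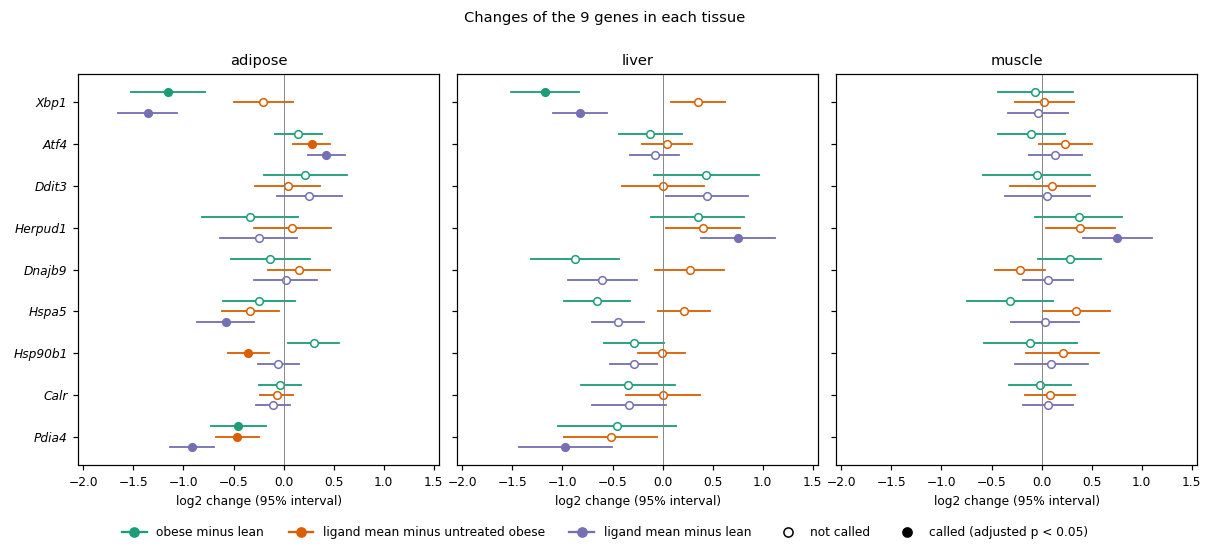
Log2 change (x axis) with its 95% interval for each gene (y axis) in 3 comparisons, by tissue; filled points passed the adjusted threshold of 0.05 and open points did not. Xbp1 lies near -1.2 for obese minus lean in adipose tissue and liver and near 0 in muscle; Pdia4 was not tested in muscle.

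In adipose tissue ligand-treated obese rats had less Pdia4 and Hsp90b1 and more Atf4 than untreated obese rats, and their Xbp1 lay below that of lean rats on all 12 arrays. Averaged over the 4 ligands and set against untreated obese rats, 3 of 9 genes were called in adipose tissue, 1 higher and 2 lower, against 20.6% of all probe sets. The median of the 9 genes was -0.07, against -0.05 for all probe sets. With so many probe sets called, the count is not read as a trait of the 9 genes as a group. The calls of Hsp90b1 and Atf4 were also lost under some alternatives and without some single arrays, as given below. Markers of several cell types moved in the same comparison. The macrophage sum was 14502.6 to 30696.1 in ligand groups and 33822.4 to 36222.8 in untreated obese rats, with 8 of 10 markers lower, against 11.6% of all probe sets lower and 9.01% higher. The hepatocyte sum was 2994.2 to 9611.8 in ligand groups and 575.9 to 804.0 in untreated obese rats. The skeletal muscle sum was 5839.2 to 8819.8 in ligand groups and 3818.3 to 5029.8 in untreated obese rats, and neither overlapped. Of 8 hepatocyte markers 2 passed the signal filter, and of 10 skeletal muscle markers 2 did, with 1 called higher in each list. Over the 18 adipose arrays Alb, the albumin gene, read 188.4 to 9189.6, while Apoa1 read 3.9 to 34.2. Of 8 fibroblast markers 3 were higher and 3 lower, and of 6 adipocyte markers 2 were higher and 1 lower, with sums that overlapped, as did those of the endothelial, acinar and immediate early lists. The part of these markers in the results was not tested.

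Pdia4 fell. It read 441, 434 and 543 with pioglitazone, 625, 586 and 594 with rosiglitazone, 535, 527 and 488 with troglitazone and 745, 537 and 509 with AG035029, against 739.6, 775 and 748 in untreated obese rats. The exception among the 12 treated arrays was AG035029 replicate 1, and the other 11 lay below all untreated arrays. The change was -0.46 ± 0.10 (adjusted p = 0.00357) and was called in every alternative. Untreated obese rats also read lower than lean rats, though that call was at the threshold and was lost without any 1 of its arrays. By their mean signals, treated rats stood further from lean rats than untreated ones did. All 12 treated arrays were below the 3 lean arrays of 1098, 996 and 1025.

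Hsp90b1 fell in adipose tissue on all 12 treated arrays. The signals were 2646, 2423 and 2949 with pioglitazone, 3272, 2622 and 3183 with rosiglitazone, 3036, 3521 and 2915 with troglitazone and 3237, 2489 and 2606 with AG035029, against 3734, 3763 and 3583 in untreated obese rats. The change was -0.35 ± 0.10, or 0.784 times the untreated level (adjusted p = 0.0138). It was lost with median centring (0.111) and without untreated obese replicate 1 (0.0636) or 2 (0.0614). Against lean rats the ligand mean differed by -0.05 ± 0.10 (adjusted p = 0.716), with treated and lean arrays overlapping.

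Atf4, which PERK signalling favours at the level of translation, rose at the level of its transcript. It read 3928, 3407 and 3409 with pioglitazone, 3344, 3744 and 2747 with rosiglitazone, 3215, 3400.0 and 3575 with troglitazone and 3301, 3103 and 3306 with AG035029, against 2749.7, 2853 and 2697 in untreated obese rats. All treated arrays but rosiglitazone replicate 3, 11 of 12, were above all untreated arrays. The change was 0.28 ± 0.09, or 1.21 times the untreated level (adjusted p = 0.0304), and was lost under quantile normalization (0.163) and without untreated obese replicate 1, 2 or 3 (0.103, 0.0664 and 0.115).

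Hspa5 leaned lower without a call. Its treated adipose signals spanned 1867.8 to 3531.2 with a median of 2480.2, against 3642, 2839.8 and 3233 in untreated obese rats, and 8 of 12 treated arrays lay below all untreated arrays. The change was -0.33 ± 0.14 (adjusted p = 0.0932). It was called under quantile normalization (0.0328), with array weights (0.0334), with the replicate number as a block (0.041) and without troglitazone replicate 2 (0.04). Xbp1 treated signals spanned 1721.8 to 2496.0, a change of -0.20 ± 0.14 (adjusted p = 0.325). Calr, Ddit3, Herpud1 and Dnajb9 changed by -0.07, 0.04, 0.09 and 0.15 on the log2 scale, and none of these was called.

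Each ligand was set against the same 3 untreated obese arrays, so the 4 comparisons share their controls. Pioglitazone had 4 of 9 genes called in adipose tissue, against 14.5% of all probe sets: Pdia4 at -0.66 ± 0.13 (adjusted p = 0.00238), Hspa5 at -0.63 ± 0.17 (0.02), Hsp90b1 at -0.47 ± 0.12 (0.0151) and Atf4 at 0.37 ± 0.11 (0.0334). Of these, Pdia4 kept its call without any 1 array. Hsp90b1 lost it without pioglitazone replicate 2 (0.0749), Hspa5 without untreated obese replicate 1 or 3 or pioglitazone replicate 2 or 3 (0.0522 to 0.0923), and Atf4 without any 1 of the 6 arrays (0.0526 to 0.142). Median centring also ended the calls of Hspa5 (0.0568) and Hsp90b1 (0.0848), and quantile normalization that of Atf4 (0.135).

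Troglitazone had 1 of 9 called, against 16.9%, which was Pdia4 at -0.53 ± 0.13 (adjusted p = 0.00871). Median centring shifted all probe sets by a median of 0.14 here, and with it Pdia4 was at -0.39 (adjusted p = 0.061) and Atf4 at 0.43 (0.0153, against 0.0784 without it). AG035029 had 1 of 9 called, against 15.1%, which was Hsp90b1 at -0.42 ± 0.12 (adjusted p = 0.0263). That call was lost without any 1 of the arrays but AG035029 replicate 1, at 0.0534 to 0.122, and with median centring (0.0889) or only the groups compared (0.0506). Pdia4 with AG035029 was at -0.35 ± 0.13 (0.0813), and without AG035029 replicate 1, its high array, it was at -0.51 (0.00911). Rosiglitazone had 0 of 9 called (limma), against 5.56%, with Pdia4 at -0.32 ± 0.13 and Hsp90b1 at -0.29 ± 0.12, the 2 genes with an unadjusted p under 0.05.

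A call with 1 ligand and not with another does not show that the ligands differ. The F-test among ligands in adipose tissue called 0 of 9 genes (limma), against 0.0315% of all probe sets, with 1 of 9 at an unadjusted p under 0.05. The 6 pairwise differences of 9 genes gave 54 values of at most 0.50 in size, with a lowest adjusted p of 0.469 and 95% intervals reaching 0.21 to 0.48 to each side. The doses and lengths of treatment are not in the labels, so the ligands cannot be taken as matched.

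**Figure D3:**
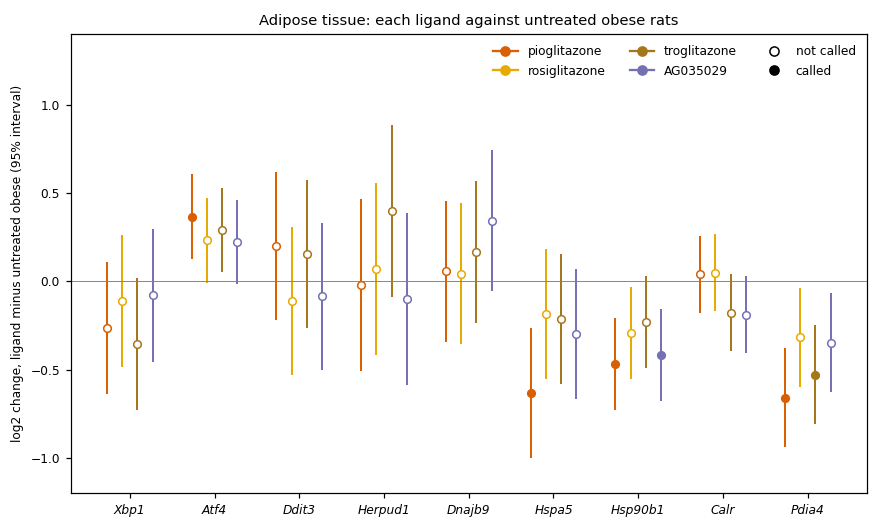
Log2 change in adipose tissue (y axis, 95% interval) for each gene (x axis) and ligand (colour), each minus untreated obese; filled points passed the adjusted threshold. Pdia4 and Hsp90b1 lie below 0 and Atf4 above 0 with all 4 ligands, with Pdia4 between -0.66 and -0.32.

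In liver the means of the ligand groups lay between untreated obese and lean rats for Xbp1, without a call against untreated obese rats. Xbp1 read 4171, 3206 and 3136 with pioglitazone, 3685, 3385 and 4038 with rosiglitazone, 3045, 2753 and 3071 with troglitazone and 3389, 3388 and 2951 with AG035029, against 2273, 3084 and 2517 in untreated obese livers. Of 12 treated arrays 8 were above all untreated arrays and 12 were below all lean arrays. The change was 0.35 ± 0.13 (adjusted p = 0.291). Hspa5 had 9 of 12 treated arrays above all untreated arrays, at 0.21 ± 0.12 (adjusted p = 0.584).

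Averaged over ligands, 0 of 9 genes were called in liver (limma), against 0.494% of all probe sets, with 3 of 9 at an unadjusted p under 0.05. Those were Xbp1, Herpud1 at 0.40 ± 0.18 and Pdia4 at -0.52 ± 0.22. Pdia4 read 4184, 1104 and 2025 in rosiglitazone livers, a wider spread than in any other liver group. Without rosiglitazone replicate 1, the high array, its ligand mean change was -0.64 (adjusted p = 0.0436) and its rosiglitazone change was -1.25 (0.00696), against -0.76 ± 0.28 (0.374) with it. By single ligand 0 of 9 were called with pioglitazone (0.021% of all probe sets called), rosiglitazone (0.063%), troglitazone (0.662%) and AG035029 (0.2%), with 1, 3, 2 and 1 genes at an unadjusted p under 0.05. Leaving out troglitazone replicate 3, the array with skeletal muscle transcripts, left 0 of 9 called for the ligand mean (limma, 0.41% of all probe sets), with 3 at an unadjusted p under 0.05. Xbp1 was then at 0.35 (adjusted p = 0.344), Herpud1 at 0.45 (0.341), Hspa5 at 0.21 (0.618) and Pdia4 at -0.52 (0.446). Troglitazone without that array also had 0 of 9 called (0.273% of all), with Atf4 at 0.39 and Herpud1 at 0.52 the 2 genes at an unadjusted p under 0.05.

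In muscle 0 of 8 genes were called for the ligand mean (limma), against 0.242% of all probe sets, with 2 of 8 at an unadjusted p under 0.05. Those were Herpud1 at 0.39 ± 0.17 (adjusted p = 0.654) and Hspa5 at 0.35 ± 0.16 (0.688). By single ligand 0 of 8 were called with pioglitazone (0.231% of all), rosiglitazone (0.0315%), troglitazone (0.704%) and AG035029 (0.116%), with 0, 0, 2 and 1 genes at an unadjusted p under 0.05. Hsp90b1 and Hspa5 read highest in muscle on 1 array, troglitazone replicate 2, at 3094 and 3596.

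The F-test among ligands called 0 genes in liver (0.0105% of all probe sets) and 0 in muscle (0.0% of all), with 2 of 9 and 1 of 8 genes at an unadjusted p under 0.05. Pairwise differences between ligands were at most 0.74 in size in both tissues, with 95% intervals reaching 0.30 to 0.59 to each side in liver and 0.31 to 0.53 in muscle. Without the liver array with skeletal muscle transcripts, the liver F-test still called 0 of 9 genes, with 2 at an unadjusted p under 0.05, and the 27 differences that involve troglitazone were at most 0.66 in size. Whether the ligand effect differed between tissues was tested in the joint fit, which called 0 of 9 genes (limma), against 4.93% of all probe sets, with 3 of 9 at an unadjusted p under 0.05. The lowest was Hspa5, with an adipose effect 0.68 ± 0.21 below the muscle effect (log2 difference -0.68, F-test adjusted p = 0.0722). It was called under quantile normalization (0.0168) and with array weights (0.0276), with the arrays of lowest correlation left out (0.0425), and without adipose troglitazone replicate 2 (0.0434) or muscle troglitazone replicate 3 (0.0265). Without liver troglitazone replicate 3 it called 0 of 9 genes, with a lowest adjusted p of 0.0793.

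Treated obese rats were also set directly against lean rats, which differ from them in both genotype and treatment. In adipose tissue 4 of 9 genes were called, 1 higher and 3 lower, against 35.5% of all probe sets. Xbp1 was at -1.36 ± 0.14 (adjusted p = 1.17e-06), Pdia4 at -0.92 ± 0.10 (2.92e-06), Hspa5 at -0.58 ± 0.14 (0.00315) and Atf4 at 0.42 ± 0.09 (0.00112). For Xbp1, Pdia4 and Atf4 all 12 treated arrays lay on 1 side of the 3 lean arrays, and for Hspa5 11 of 12 did. Calr, at -0.10 ± 0.08 (0.335), was called under quantile normalization alone, at -0.29 (0.00973). The 4 calls held without any 1 array and in every alternative, including median centring, which shifted the median over all probe sets by 0.11.

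In liver 3 of 9 genes were called against lean rats, 1 higher and 2 lower, against 3.18% of all probe sets, with 7 of 9 at an unadjusted p under 0.05. Xbp1 was at -0.83 ± 0.13 (adjusted p = 0.000693) and Pdia4 at -0.97 ± 0.22 (0.0169). Herpud1 read 3586, 3468 and 3169.6 with pioglitazone, 4129, 2708 and 2827 with rosiglitazone, 3473, 3908 and 2539.7 with troglitazone and 3077, 3866 and 4484 with AG035029, against 2047, 1658 and 2359.7 in lean livers. All 12 treated arrays were above the lean arrays, and the change was 0.75 ± 0.18, or 1.69 times the lean level (adjusted p = 0.0183). The untreated obese livers, at 2521, 3473 and 1914, overlapped both. Herpud1 lost its call without lean replicate 1 (0.0649) or 2 (0.19), and Pdia4 without lean replicate 1, 2 or 3 (0.0714, 0.0925 and 0.0678). Without troglitazone replicate 3, Xbp1 was at -0.83 (0.00109), Herpud1 at 0.80 (0.0122) and Pdia4 at -0.97 (0.0228). Dnajb9 at -0.60 ± 0.17 (0.0501) and Hspa5 at -0.45 ± 0.12 (0.0535) lay just past the threshold. Dnajb9 was called without lean replicate 3 (0.0257), rosiglitazone replicate 1 (0.0352) or troglitazone replicate 2 (0.0416). It was also called in 5 of 10 alternatives, at 0.0378 with the replicate number as a block, 0.046 with a pseudocount of 80, 0.0373 with the filter at the 60th percentile, 0.0395 under quantile normalization and 0.0417 with only the groups compared. Hspa5 was called with that filter (0.043), with array weights (0.0365) and without rosiglitazone replicate 3, the liver array of lowest correlation (0.0165), or troglitazone replicate 2 (0.0425).

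In muscle 1 of 8 genes was called against lean rats, against 1.11% of all probe sets. This was Herpud1, at 1531, 1758 and 1765 with pioglitazone, 1385, 1682 and 1363 with rosiglitazone, 1664, 1574 and 2338 with troglitazone and 2137, 2504 and 1976 with AG035029, against 1066, 1435 and 741 in lean muscle. Of 12 treated arrays 10 were above all lean arrays. The change was 0.76 ± 0.17 (adjusted p = 0.0249), and was lost without lean replicate 1 (0.108) or 3 (0.34). The summed signal of 6 adipocyte markers in muscle was 8752.8 to 32863.9 in ligand groups and 3649.5 to 4221.9 in lean rats. Over the 18 muscle arrays Fabp4 read 2297.9 to 27775.6, while Lipe read 22.1 to 708.1 and Plin1 93.7 to 398.3. Between the ligand mean and untreated obese muscle 4 of the 6 markers were tested and 2 were called higher, against 0.221% of all probe sets. The part of these markers in the result was not tested.

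Other genes of the response were read from 7 lists, each gene by its probe set of highest mean. The lists were chosen with earlier results of these data known, so their counts are a description and not a test. Their counts in adipose tissue with a ligand are set against 9.01% of all probe sets called higher, 11.6% called lower and 34.0% at an unadjusted p under 0.05. In adipose tissue with a ligand, 20 tested enzymes and chaperones of protein folding in the endoplasmic reticulum had a median of -0.24, against -0.05 for all probe sets, with 0 higher and 1 lower called, and 10 of 20 at an unadjusted p under 0.05. The called gene was Hyou1, a large chaperone that works with BiP, at 377.5 to 479.3 as means of the ligand groups and 709.9 ± 14.9 (SD, n = 3) in untreated obese rats, or -0.80 ± 0.23 (adjusted p = 0.017). It lost the call without untreated obese replicate 1, 2 or 3 (0.0735, 0.0558 and 0.0622). Of 15 tested stress sensors and regulators 0 were called higher and 2 lower, a share near that of all probe sets. They were Atf6b, a relative of ATF6, at -0.76 ± 0.17 (0.00295), and Mbtps2, the protease that frees ATF6 from its membrane, at -0.49 ± 0.15 (0.0258). Mbtps2 lost its call under quantile normalization (0.0716), median centring (0.0848) and without untreated obese replicate 1 (0.198).

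Of 25 tested genes known as ATF4 or CHOP targets, 5 were called higher and 1 lower in adipose tissue with a ligand, with a list median of 0.12. Psat1 and Phgdh, enzymes of serine synthesis, were at 1.21 ± 0.11 (adjusted p = 1.1e-06) and 0.63 ± 0.12 (0.00146). Asns, the asparagine synthetase, was at 0.76 ± 0.10 (2.18e-05). Its 12 treated arrays spanned 1323.3 to 1824.4, above the untreated obese range of 971.8 to 1004.3. Psat1 also did not overlap, at 3802.7 to 6206.8 in treated and 2090.5 to 2727.1 in untreated obese rats. Nupr1, a stress-induced nuclear protein, was at 0.61 ± 0.16 (0.0125) and Vegfa, the vascular growth factor, at 0.40 ± 0.11 (0.0185). The gene called lower was Ndrg1, at -0.67 ± 0.18 (0.0127). Psat1, Asns and Phgdh kept their calls without any 1 array. Nupr1 lost it without untreated obese replicate 2 (0.0867) or 3 (0.108), Vegfa without replicate 1 (0.124) or 2 (0.0762), and Ndrg1 without replicate 1 (0.0641) or 3 (0.0593).

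The disposal, translocation and transport lists had 1 gene called each in adipose tissue with a ligand. Of 16 disposal genes 1 was higher, Nploc4, a partner of the segregase VCP, at 0.35 ± 0.11 (adjusted p = 0.029), lost without untreated obese replicate 1, 2 or 3 (0.192, 0.0556 and 0.0542). Of 23 genes of transport to the Golgi 1 was lower, the COPII coat gene Sec24c at -0.35 ± 0.08 (0.00612). Of 19 translocation genes 1 was lower, Sec11c of the signal peptidase at -0.43 ± 0.15 (0.0462), which was lost without most single arrays and in 6 of 10 alternatives.

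Between untreated obese and lean adipose tissue 0 of 20 folding genes, 0 of 16 disposal genes and 0 of 15 sensors were called, with 1, 2 and 3 at an unadjusted p under 0.05, against 6.02% of all probe sets called and 20.7% at an unadjusted p under 0.05. Over the 7 lists 3 of 140 genes were called higher and 2 lower, 1 of them Cryab of the cytosolic chaperones. Sec11c was at 0.66 ± 0.19 (adjusted p = 0.0426) and Ssr3 of the translocon at 0.34 ± 0.09 (0.0352). Vegfa was at -0.55 ± 0.14 (0.0279) and Bet1, a SNARE of transport to the Golgi, at -0.48 ± 0.12 (0.0251). Each of Sec11c, Ssr3, Vegfa and Bet1 lost its call without 1 or another single array, at adjusted p of up to 0.183 for Sec11c, 0.116 for Ssr3, 0.104 for Vegfa and 0.107 for Bet1.

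In liver and muscle 0 genes of the 7 lists were called in either comparison (limma), where 0.021% to 0.672% of all probe sets were. At an unadjusted p under 0.05 between untreated obese and lean rats were 20 of 135 genes in liver, against 9.76% of all probe sets, and 9 of 127 in muscle, against 4.87%. Between the ligand mean and untreated obese rats they were 10 of 135 in liver, against 10.6%, and 9 of 127 in muscle, against 7.11%. The 21 folding genes tested in liver had a median of -0.32 between untreated obese and lean rats, against -0.01 for all probe sets, with 6 of 21 at an unadjusted p under 0.05. The 19 translocation genes had a median of -0.18 there, with 5 of 19 at an unadjusted p under 0.05.

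**Figure D4:**
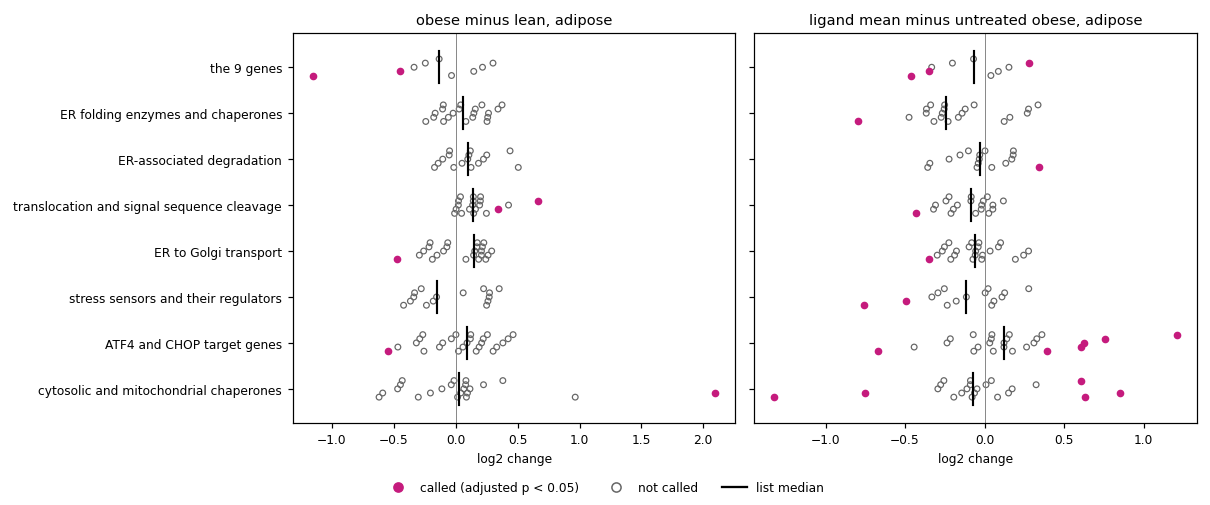
Log2 change (x axis) of each tested gene in adipose tissue for the 9 genes and 7 lists (y axis); filled points passed the adjusted threshold and black lines are list medians. Psat1 at 1.21 is the highest point of the ATF4 and CHOP targets with a ligand, and the folding list has its median at -0.24.

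The genes whose pattern over 54 arrays was most like each of the 9, after removing the tissue means, were found among 6448 probe sets tested in all tissues. The correlations describe these arrays, which share their groups and tissues. Xbp1 was most like Slco2b1, an organic anion transporter, at r = 0.72, with 0.93 for adipose tissue alone, 0.38 for liver and 0.40 for muscle. Serping1, the C1 inhibitor, followed at 0.68 and Ctcf at 0.67. Hspa5 was most like Tmem47 (0.68), Manf (0.63) and Xbp1 itself (0.60). Its r with Xbp1 was 0.70 for adipose tissue, 0.78 for liver and 0.01 for muscle. With the group means removed as well, these were 0.51, 0.06 and -0.02. Pdia4 was most like Manf, a secreted factor of the endoplasmic reticulum, at 0.66, with 0.64, 0.71 and 0.70 by tissue, then Pdia3 (0.63), another disulfide isomerase, and Tbl1x (0.60). Pdia4 itself lay below the filter in muscle, at 28.2 to 198.5, and its r over 54 arrays and in muscle uses these low signals. Atf4 was most like Pdk4, the kinase that slows pyruvate dehydrogenase, at 0.62, then Ubqln1 (0.58) and Hadhb (0.57). Herpud1 was most like Fkbp5, a co-chaperone of steroid receptors, at 0.64, with 0.31 for adipose tissue, 0.66 for liver and 0.82 for muscle, then Slc25a33 (0.58) and Il6r (0.57). Hsp90b1 was most like Ptbp3 (0.65), S100a10 (0.62) and Msn (0.57), and Calr most like Rpn1 (0.55), Cep20 (0.55) and Tacc1 (0.52). Dnajb9 was most like Tcp11l2 (0.53), Eif3m (0.52) and Khdc4 (0.52), and Ddit3 most like Tbc1d10b (0.49), C8h11orf54 (0.48) and Mtarc1 (0.48).

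Among themselves the 9 genes did not move as a block. The 36 pairs had a median r of 0.06 over 54 arrays, with 20 of 36 above 0. Pairs with Pdia4 include its muscle signals, which lay below the filter. Xbp1 and Hspa5 had the highest value named here, 0.60, followed by Hspa5 with Hsp90b1 at 0.46 and with Pdia4 at 0.44. With the group means removed these were 0.19, 0.36 and 0.35. In adipose tissue Pdia4 ran with Xbp1 at 0.84 and against Atf4 at -0.83 over 18 arrays, and with the group means removed these were 0.21 and -0.07.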

How the data were processed

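The deposited values were intensities on a linear scale, which the authors made with MAS5 (version not given in the sources used here), per the submitters' processing notes, and each array had a trimmed mean (2% cut at either end) of 500.1 or 500.2. RNA was pooled from 2 rats per array, per the labels' protocols, on Affymetrix Rat Expression 230A arrays. They were not rescaled.

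Of 15923 probe sets 57 controls were left out. The platform annotation gave 1 symbol to 12783 of the others, several to 312 and none to 2771, and 12748 matched the reference gene table by Entrez identifier, which changed 0 symbols. Signals were used as log2(signal + 20). In each tissue the 9519 probe sets above the 40th percentile of mean signal entered 1 linear model of 18 arrays with 12 residual degrees of freedom (R 4.3.3, limma 3.58.1, moderated variances with an intensity trend). A joint fit of 54 arrays and 11520 probe sets, with all arrays taken as independent, gave differences between tissues. It used 1 spread per probe set for all tissues. In the fits by tissue the median residual SD was 0.20 (adipose tissue), 0.32 (liver) and 0.30 (muscle). The Benjamini-Hochberg adjustment of p-values ran over all probe sets tested, and every p-value comes from limma. The fit was tested on simulated data with known changes.

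The 9 genes, the lists and the alternatives were chosen with earlier results of these data known. Named genes were the 9, up to 2 called genes per direction of each list and comparison, counts of 5 or fewer in full, and the 3 genes most like each of the 9. Replicate numbers were tested as pairs by correlating the deviations of same-numbered arrays from their group means. The mean r was 0.02 (adipose tissue), 0.003 (liver) and 0.01 (muscle), with a lowest value of -0.16, so the numbers were not taken as pairs. No 2 arrays were identical, and the highest correlation between 2 arrays was 0.981. Alternatives were pseudocounts of 5 and 80, quantile normalization, median centring, no filter or the 60th percentile as filter, array weights, the replicate block, only the groups compared, the arrays of lowest correlation left out, and each array left out in turn. The number of arrays limits the precision.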

Additional observations from a re-analysis of the deposited data

Results flagged for a closer look

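The effect of obesity on 2 of the 9 genes differed between the 3 tissues by an F-test over the 54 arrays together. For Xbp1 the adjusted p was 0.0104 (limma), with untreated obese minus lean at -1.16 (adipose tissue), -1.18 (liver) and -0.06 (muscle), and each alternative and each omission of 1 array left it called, the highest adjusted p being 0.0374. For Dnajb9 the adjusted p was 0.0383, with changes of -0.13 (adipose tissue), -0.87 (liver) and 0.28 (muscle), all with limma. That call was lost with array weights (0.123), with median centring (0.0938) and without any 1 of 14 of the 18 arrays compared (up to 0.154). All 3 untreated obese arrays of Dnajb9 were below the lean arrays in liver and above them in muscle.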

How the results depend on the processing

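For the 9 genes and the called list genes 5017 values were recomputed under alternatives for 249 results, of which 4844 stayed on their side of the threshold, 130 lost a call and 42 gained one. Among the 4844, 140 uncalled values of 55 results took the other sign, with values of at most 0.17 in size as reported and 0.23 under the alternative. One value turned direction with a call: Xbp1 in lean liver minus lean adipose tissue, at -0.48 under quantile normalization, for which the cause was not tested. The counts of called genes moved as follows, and the causes were not tested. Obese minus lean in adipose tissue gave 2 called, and 1 with median centring, with no filter and with the replicate block, and 1 without any single array. In liver it gave 1 called, 2 with the arrays of lowest correlation left out and with the replicate block, 3 with the filter at the 60th percentile, and 1 to 2 without single arrays. The ligand mean gave 3 called in adipose tissue and 1 to 4 without single arrays, and 0 in liver and 0 to 1 without them. Pioglitazone in adipose tissue gave 4, 2 with median centring and 1 to 3 without single arrays. Troglitazone gave 1, and 3 under quantile normalization. AG035029 gave 1, 2 with array weights and under quantile normalization, 0 with median centring and with only the groups compared, and 0 to 2 without single arrays. Rosiglitazone in liver gave 0, and 0 to 1 without single arrays. The ligand mean minus lean gave 3 in liver, 5 with the filter at the 60th percentile and 1 to 5 without single arrays, and in muscle 1, and 0 to 1 without them. The F-test of tissue differences in the ligand effect gave 0, 2 with array weights and under quantile normalization, 1 with the arrays of lowest correlation left out, and 0 to 1 without single arrays. The same test of the obesity effect gave 2, 1 with array weights and with median centring, and 1 to 2 without single arrays. Under the replicate block Pdia4 in adipose tissue of obese against lean rats had an adjusted p of 0.0511 and Dnajb9 in liver 0.0455, the ligand mean gave 0.041 for Hspa5 in adipose tissue, and against lean rats it gave 0.0378 for Dnajb9 in liver. Sec11c in adipose tissue lost its calls under it, at 0.0577 for obese against lean and 0.0614 for the ligand mean. It gave 2 called in place of 1 for the folding list with a ligand and for the cytosolic and mitochondrial chaperones between obese and lean rats, and it changed no other call of the 9 genes or of the list genes called without it. With 3 pools of 2 rats per group, a difference that was not called is not shown to be absent.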

Other observations

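Of 22 tested cytosolic and mitochondrial chaperones 3 were called higher and 2 lower in adipose tissue with a ligand, against 9.01% of all probe sets higher and 11.6% lower, so the share of the list called is near that of all probe sets. The 3 called higher are mitochondrial. Hspd1 (HSP60) was at 0.86 ± 0.11 (limma, adjusted p = 1.9e-05), with 7086.6 to 10953.8 on the 12 treated arrays and 4950.9 to 5112.5 in untreated obese rats. Its partner Hspe1 (HSP10) was at 0.63 ± 0.09 (5.09e-05), and Hspa9 (mortalin) at 0.60 ± 0.13 (0.00204). For these 3 genes every treated array was above every untreated one, and the calls held without any 1 array.

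Cryab, a small heat shock protein, went the other way. It was higher in untreated obese than in lean adipose tissue by 2.10 ± 0.24 (adjusted p = 3.54e-05), with 3911.0 ± 390.0 and 903.2 ± 150.5 (SD, n = 3 each). With a ligand it was lower by -1.32 ± 0.19 (7.74e-05), at 1105.7 to 3018.4 on the treated arrays, and both calls held without any 1 array. Hspa4, a cytosolic relative of HSP70, was at -0.75 ± 0.23 (0.0276), which was lost without untreated obese replicate 1, 2 or 3 (0.0795, 0.0864 and 0.095), with no filter (0.053) and with median centring (0.0598). The list median was -0.07, against -0.05 for all probe sets, and 0 genes of the list were called in liver or muscle (limma).

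With group means removed, Hsp90b1 and Pdia4 had r = 0.68 over 18 arrays of adipose tissue, 0.80 in liver and 0.22 in muscle. These values describe how replicates of a group vary. The pair was picked from 36, which had medians of 0.16, 0.05 and 0.11. The 3 rosiglitazone livers spread widely, with Pdia4 at 4184, 1104 and 2025 and Hsp90b1 at 5464, 3836 and 4733. The liver r was not computed without that group. In muscle Pdia4 lay below the signal filter.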
